A study of Sus scrofa with 4 samples.

Results

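The genes described here are 49 components of TGF-beta and BMP signalling: ligands and the proteins that keep them latent, secreted antagonists, receptors, SMAD proteins, intracellular feedback regulators and the ID factors. They were taken by gene symbol from a list of pathway components that was chosen with earlier results of these data known. All 49 have a row among the 35670 genes of the count files. Of these, 45 reached 10 reads in at least 1 library and 44 passed the filter on low counts. The libraries come from porcine fetal fibroblasts (PFFs), skin fibroblasts of pig fetuses that serve as nuclear donors in cloning. All were kept under serum starvation. There were 2 libraries of the genotype labelled BRG1-overexpressed and 2 of the genotype labelled WT, called controls below. The name pTK-642 stands in the titles of both groups. Its meaning and any vector in the controls are not given in the sources used here, and nothing says that replicates are separate cultures, so each p reflects the spread between these 4 libraries alone, which may be technical. The series' design text asks what more BRG1, the ATPase of the BAF chromatin remodelling complex, does to chromatin in such donor cells.

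TGF-beta ligands are secreted bound to a propeptide and to latent TGF-beta binding proteins (LTBPs), which tether them in the extracellular matrix until they are released. Released TGF-beta and activins assemble type I and type II serine/threonine kinase receptors that phosphorylate SMAD2 and SMAD3, whereas most BMPs act through SMAD1, SMAD5 and SMAD9. Both branches share SMAD4, and both are restrained by SMAD6, SMAD7, SKI and SKIL. In fibroblasts the TGF-beta branch is best known for driving matrix and contractile genes, and the BMP branch for inducing ID genes.

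Counts per gene summed to 36238580 and 34684837 in BRG1-labelled libraries 1 and 2, and to 38126860 and 34486400 in controls 1 and 2. SMARCA4, which encodes BRG1, lay at 159 and 163 CPM in the BRG1-labelled libraries and at 154 and 179 CPM in controls (reads scaled by library total and TMM factor, as all CPM below). The groups overlapped, and the log2 fold change was -0.04 ± 0.11 (SE; edgeR adjusted p = 0.765), so this gene does not check the labels. It was 0.18 with scaling by library size alone and 0.06 with upper-quartile scaling. Without control 1 it was -0.15, and without control 2 it was 0.05. Fibroblast markers summed to 39548 and 39630 CPM in BRG1-labelled libraries and to 25983 and 30003 CPM in controls over 9 genes with a row. They did not all move alike. At an edgeR adjusted p of 0.05, 6 of the 9 were higher, where 21.0% of all genes tested were. VIM, COL3A1 and PDGFRB did not pass, with log2 fold changes of -0.27, -0.21 and -0.22. Keratinocyte markers summed to no more than 3.71 CPM in any library, mostly KRT10, with KRT5 and KRT1 at 0 reads in all 4. KRT10 had 98 and 100 reads in BRG1-labelled libraries and 83 and 81 in controls. EPCAM, with 3 and 1 reads against 14 and 20, was called lower (edgeR adjusted p = 0.0162). Immune markers summed to no more than 3.26 CPM, with PTPRC at 0. Most of that sum was CD68, with 96 and 106 reads in BRG1-labelled libraries and 45 and 77 in controls. Melanocyte markers reached 0.57 CPM, skeletal muscle markers 0.87 CPM, and adipocyte markers 6.07 and 9.24 CPM in BRG1-labelled libraries against 2.40 and 2.18 CPM in controls, mostly LPL.

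The pathway genes changed in both directions, and most of those tested did change. Of the 44 tested, 20 were higher and 14 lower in the BRG1-labelled libraries at an adjusted p of 0.05 (edgeR's quasi-likelihood test with Benjamini-Hochberg adjustment over 14617 genes), and 10 did not pass. Among all genes tested, 44.6% passed, 21.0% as higher and 23.6% as lower. The pathway genes were counted more deeply than most: their median level was 43.8 CPM, against 17.6 CPM over all genes tested. At least 2-fold changes were found in 7 genes as higher and 7 as lower, where 8.67% and 6.27% of all genes tested changed that much. The median log2 fold change was 0.06, against 0.02 for all genes tested. The groups did not overlap in 39 of the 44, against a background of 73.2% for all genes tested. In bulk RNA a lower level cannot be told apart from fewer cells that express the gene.

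**Figure D1:**
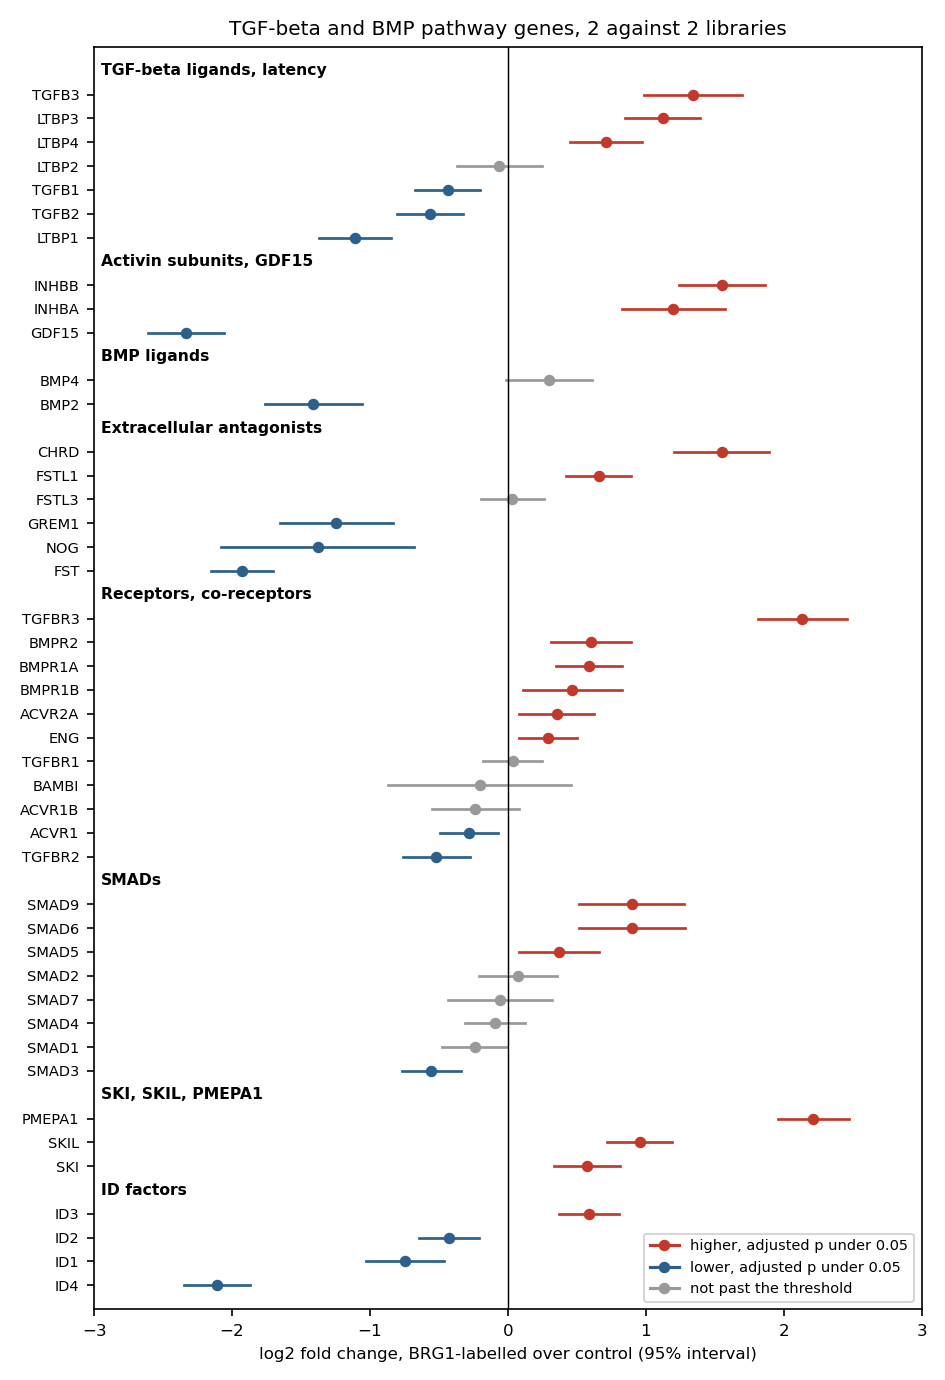
Log2 fold change with 95% interval for the 44 pathway genes tested, grouped by role, BRG1-labelled over control libraries (2 each). Red genes were higher and blue genes lower at an adjusted p of 0.05, and grey genes did not pass; the values run from -2.33 for GDF15 to 2.21 for PMEPA1.

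Without either BRG1-labelled library the calls numbered 16 higher and 10 lower. The same 8 calls were lost in both cases: TGFB1, TGFBR2, ENG, ACVR1, ACVR2A, BMPR1B, SMAD5 and ID2, whose changes were at most 0.52 on the log2 scale. None of the 34 genes that passed changed its sign in any of the 13 alternative settings in which it could be fitted. Scaling by library size alone moved the median of all genes by 0.23 on the log2 scale, and the pathway counts to 22 higher and 11 lower.

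**Figure D2:**
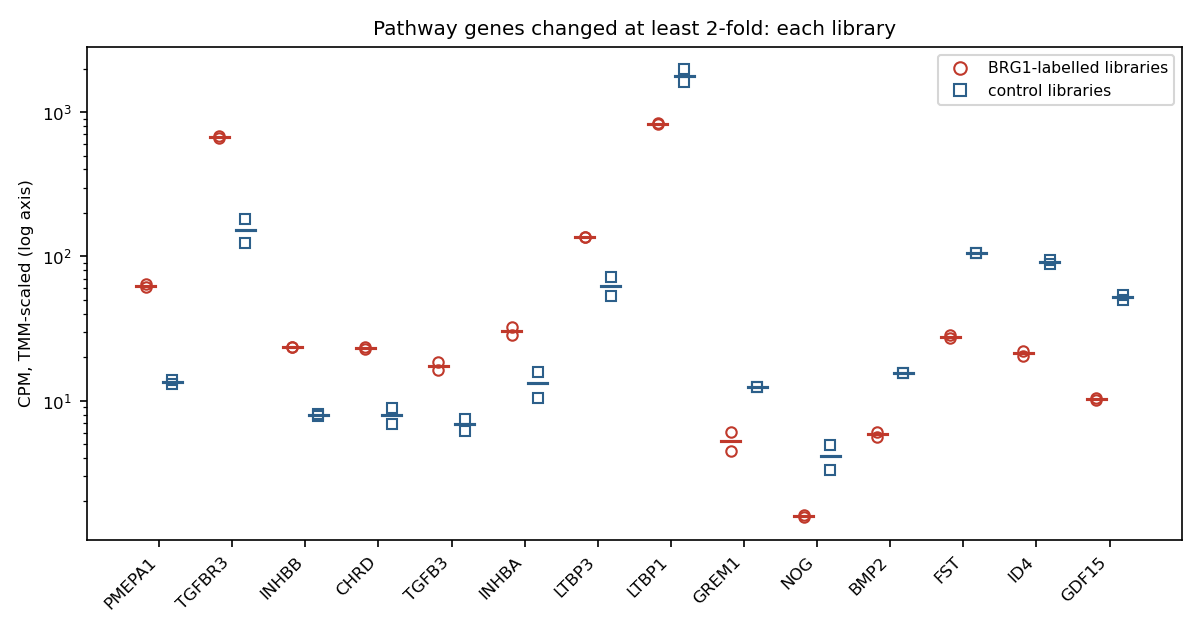
TMM-scaled CPM on a log axis for the 14 pathway genes past an adjusted p of 0.05 with at least a 2-fold change, ordered by fold change. Circles are the 2 BRG1-labelled libraries, squares the 2 control libraries and bars the group means. GDF15, for example, was at 10.5 and 10.1 CPM in BRG1-labelled libraries and at 53.7 and 50.2 CPM in controls. The groups are separate in each of the 14 genes, which were selected on these same values, and in 73.2% of all genes tested.

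Among the TGF-beta ligands and their latency proteins, TGFB3, LTBP3 and LTBP4 rose while TGFB1, TGFB2 and LTBP1 fell. TGFB3 (ENSSSCG00000002385; Sscrofa11.1 chromosome 7, 99133873 to 99162239), the isoform known for its part in palate closure, was at 18.4 and 16.4 CPM in BRG1-labelled libraries and at 7.51 and 6.20 CPM in controls. Its log2 fold change was 1.34 ± 0.17 (edgeR adjusted p = 1.33e-05), and the lower BRG1-labelled library stood above the higher control by more than either group's spread. TGFB1, the most widely expressed isoform, was at 33.9 and 34.5 CPM in BRG1-labelled libraries and at 46.6 and 46.0 CPM in controls, a log2 fold change of -0.44 ± 0.11 (edgeR adjusted p = 0.00489). That of TGFB2 was -0.57 ± 0.11, and -0.34 with library size alone. So the ligand genes did not move together: 1 of 3 rose and 2 fell, where 21.0% of all genes tested rose and 23.6% fell. The fall of TGFB1 no longer passed with scaling by library size alone (-0.21; edgeR adjusted p = 0.128), without BRG1-labelled library 1 (-0.42; edgeR adjusted p = 0.122) or without library 2 (-0.45; edgeR adjusted p = 0.0834).

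LTBP1 (ENSSSCG00000008510; chromosome 3, 106300748 to 106724538), which binds the latent complex and fixes it to matrix, was at 822 and 839 CPM in BRG1-labelled libraries and at 1605 and 1976 CPM in controls. The log2 fold change was -1.11 ± 0.12 (edgeR adjusted p = 4.22e-06), and the controls lay much farther apart than the BRG1-labelled libraries. LTBP3 (ENSSSCG00000012985; chromosome 2, 6701455 to 6720191), another binder of the latent complex, was at 137 and 136 CPM in BRG1-labelled libraries and at 53.5 and 72.0 CPM in controls (1.12 ± 0.13; edgeR adjusted p = 5.19e-06). LTBP1 and LTBP3 thus changed by about the same factor in opposite directions. LTBP4, which also takes part in elastic fibre assembly, had a log2 fold change of 0.71 ± 0.12. LTBP2, which unlike the others does not bind latent TGF-beta, was at 1240 and 1237 CPM in BRG1-labelled libraries, inside the range of 1062 to 1526 CPM spanned by the 2 controls. Its log2 fold change of -0.06 had a 95% interval from -0.37 to 0.24. The sign depended on the control used: it was -0.31 without control 1 and 0.21 without control 2.

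Both activin beta subunits rose, and GDF15 showed the largest fall among the pathway genes. INHBB (ENSSSCG00000038610; chromosome 15, 30999994 to 31004405), the beta B subunit, was at 23.5 and 23.4 CPM in BRG1-labelled libraries and at 7.88 and 8.09 CPM in controls, a log2 fold change of 1.55 ± 0.15 (edgeR adjusted p = 8.13e-07). INHBA (ENSSSCG00000035077), the beta A subunit, was at 32.2 and 28.4 CPM in BRG1-labelled libraries and at 10.5 and 15.9 CPM in controls (1.20 ± 0.18; edgeR adjusted p = 6.23e-05). The controls of INHBA lay farther apart than those of INHBB, yet neither gene's groups overlapped, which also held for 73.2% of all genes tested. GDF15 (ENSSSCG00000034260; chromosome 2, 59409035 to 59411356), a distant relative of the TGF-beta ligands that is induced by cell stress, was at 10.5 and 10.1 CPM in BRG1-labelled libraries and at 53.7 and 50.2 CPM in controls. Its log2 fold change was -2.33 ± 0.13 (edgeR adjusted p = 3.39e-09), or a level 5.04-fold lower. With the trend over gene span removed library by library it was -1.94.

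Of the BMP and growth differentiation factor ligands, only BMP2 and BMP4 had enough reads for a test, and only BMP2 passed it. BMP2 (ENSSSCG00000039442; chromosome 17, 15750487 to 15762982), an inducer of bone and cartilage, was at 6.04 and 5.61 CPM in BRG1-labelled libraries and at 15.5 and 15.4 CPM in controls, from 237 and 210 reads against 544 and 496. The log2 fold change was -1.41 ± 0.17 (edgeR adjusted p = 7.20e-06). BMP4, its close homologue, was at 17.8 and 17.0 CPM in BRG1-labelled libraries and at 13.3 and 15.0 CPM in controls; the groups were separate, but the log2 fold change of 0.30 ± 0.15 did not pass (edgeR adjusted p = 0.109). BMP4 passed as higher with upper-quartile scaling (0.40) and with library size alone (0.52). It also passed with the trend over gene span removed library by library, called the span trend below (0.58). Without control 2 its log2 fold change was 0.37. BMP5 and GDF5 had 0 reads in all 4 libraries, and a count of 0 has an upper limit of about 3 expected reads per library at 95% confidence, for counting error only. BMP6 had 0 reads in both BRG1-labelled libraries and 1 and 2 reads in controls. GDF10 had 0 and 8 reads in BRG1-labelled libraries and 0 in both controls, and GDF6 had 0 and 17 reads against 1 and 4. The reads of GDF6 and GDF10 in the BRG1-labelled group thus came from library 2 alone, and these 5 genes were not tested.

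The secreted antagonists split as well: FST, GREM1 and NOG fell, CHRD and FSTL1 rose, and FSTL3 did not pass. Of the 6 tested, 83.3% passed, against 44.6% of all genes tested. FST (ENSSSCG00000016892; chromosome 16, 32806341 to 32811382), which encodes follistatin, a binding protein that neutralizes activins, was at 28.6 and 27.0 CPM in BRG1-labelled libraries and at 106 and 106 CPM in controls. The log2 fold change was -1.93 ± 0.11 (edgeR adjusted p = 3.39e-09), a level 3.80-fold lower in the same libraries in which both activin subunits were higher. FST was at -1.61 with the span trend removed. FSTL3, a related activin-binding protein, was at 47.5 and 45.2 CPM in BRG1-labelled libraries and at 45.7 and 44.9 CPM in controls. Its groups overlapped, with a 95% interval of the log2 fold change from -0.20 to 0.26. It passed as higher with the span trend removed (0.33; edgeR adjusted p = 0.0155). FSTL1, a secreted glycoprotein named for its follistatin-like domain, had a log2 fold change of 0.66 ± 0.11.

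Among the antagonists that bind BMPs, GREM1 (ENSSSCG00000033657; chromosome 1, 136617041 to 136629293), encoding gremlin 1, was at 6.07 and 4.46 CPM in BRG1-labelled libraries and at 12.5 and 12.5 CPM in controls (-1.24 ± 0.19; edgeR adjusted p = 0.000103). NOG (ENSSSCG00000036437; chromosome 12, 32891321 to 32892206), encoding noggin, had 63 and 58 reads in BRG1-labelled libraries and 116 and 158 in controls, the fewest reads of the antagonists. The log2 fold change was -1.38 ± 0.33 (edgeR adjusted p = 0.00306), with a 95% interval from -2.08 to -0.68. CHRD (ENSSSCG00000025270; chromosome 13, 122266632 to 122277513), encoding chordin, moved the other way, with 23.7 and 22.7 CPM in BRG1-labelled libraries and 6.91 and 8.94 CPM in controls (1.55 ± 0.16; edgeR adjusted p = 2.18e-06). In each of these 3 genes the groups were separate, as they were in 73.2% of all genes tested.

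Of 11 receptors and co-receptors tested, 6 rose, 2 fell and 3 did not pass. The share that passed was 72.7%, against 44.6% of all genes tested. TGFBR3 (ENSSSCG00000006911; chromosome 4, 125109939 to 125310788), betaglycan, a co-receptor that presents TGF-beta2 to its receptors and also binds inhibin, had the largest change. It was at 662 and 681 CPM in BRG1-labelled libraries and at 124 and 182 CPM in controls, a log2 fold change of 2.14 ± 0.15 (edgeR adjusted p = 4.09e-08). The fold change was 4.39, and the 2 controls differed from each other by far less than from either BRG1-labelled library. TGFBR2 (ENSSSCG00000011226; chromosome 13, 16784370 to 16875828), the type II receptor that binds TGF-beta itself, was at 445 and 462 CPM in BRG1-labelled libraries and at 595 and 705 CPM in controls (-0.52 ± 0.11; edgeR adjusted p = 0.00169). Its partner TGFBR1, the type I receptor, was at 83.9 and 80.5 CPM in BRG1-labelled libraries and at 82.5 and 78.1 CPM in controls, overlapping groups with a 95% interval of the log2 fold change from -0.18 to 0.25. TGFBR1 turned to -0.09 with the span trend removed and to -0.02 without control 2, and it passed as higher with library size alone (0.26; edgeR adjusted p = 0.0453). The fall of TGFBR2 was still called with library size alone (-0.29; edgeR adjusted p = 0.0461) but was not called without BRG1-labelled library 1 (-0.49; edgeR adjusted p = 0.119) or without library 2 (-0.55; edgeR adjusted p = 0.0746).

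The 3 genes named as BMP receptors, BMPR1A, BMPR1B and BMPR2, rose by 0.47 to 0.60 on the log2 scale. BMPR1A (ENSSSCG00000010360; chromosome 14, 87743270 to 87891790), a type I receptor, was at 51.3 and 52.0 CPM in BRG1-labelled libraries and at 35.7 and 33.0 CPM in controls, a log2 fold change of 0.59 ± 0.11 (edgeR adjusted p = 0.000564). BMPR2, the type II receptor, had a log2 fold change of 0.60 ± 0.14, with controls at 76.1 and 107 CPM below BRG1-labelled libraries at 145 and 134 CPM. With the span trend removed BMPR1A was at 0.35 and BMPR2 at 0.37, both still called, and without control 1 BMPR2 was at 0.37. BMPR1B, a type I receptor known for its part in limb cartilage, reached 0.47 ± 0.17 (edgeR adjusted p = 0.0348) but only 0.13 with the span trend removed (edgeR adjusted p = 0.549), and its RefSeq locus of 499194 bp is the longest of the pathway genes. It was not called without BRG1-labelled library 1 (0.38; edgeR adjusted p = 0.275) or library 2 (0.55; edgeR adjusted p = 0.0788), with DESeq2 (0.45; adjusted p = 0.114) or with no filter (0.44; edgeR adjusted p = 0.0502) either.

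The activin receptors and the other co-receptors moved by at most 0.36 on the log2 scale. ACVR2A, a type II receptor for activins, rose by 0.36 ± 0.13 (edgeR adjusted p = 0.0336), ENG, the co-receptor endoglin, by 0.29 ± 0.10 (edgeR adjusted p = 0.0269), and ACVR1, a type I receptor that can signal for BMPs, fell by 0.28 ± 0.10 (edgeR adjusted p = 0.0318). These 3 calls were close to the threshold. Without BRG1-labelled libraries 1 and 2 in turn they were lost, with values of 0.33 and 0.38 for ACVR2A, 0.31 and 0.28 for ENG, and -0.30 and -0.26 for ACVR1. The call of ACVR1 was also lost with library size alone (-0.06; edgeR adjusted p = 0.675) and upper-quartile scaling (-0.18; edgeR adjusted p = 0.167), and its value was -0.51 with the span trend removed. That of ENG was lost with no filter on low counts (0.26; edgeR adjusted p = 0.0638), and its value was 0.52 with library size alone. That of ACVR2A was lost with no filter (0.33; edgeR adjusted p = 0.0660), with DESeq2 (0.34; adjusted p = 0.0787) and with the span trend removed (0.22; edgeR adjusted p = 0.158); with library size alone it was 0.58. ACVR1B, the type I activin receptor, did not pass (-0.24 ± 0.15), and its value was -0.38 without control 1. BAMBI, a receptor-like protein without a kinase domain, had 88 and 106 reads in BRG1-labelled libraries and 101 and 95 in controls, and its 95% interval from -0.87 to 0.46 was wide. It was 0.02 with library size alone and 0.11 with the span trend removed.

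ENG is abundant in endothelial cells, and the 8 endothelial markers summed to 72.4 and 71.9 CPM in BRG1-labelled libraries and to 23.7 and 28.1 CPM in controls. Most of that sum was ERG, at 65.0 and 63.8 CPM in BRG1-labelled libraries and 18.5 and 23.6 CPM in controls. Of the 4 markers tested, ERG and PECAM1 rose, where 21.0% of all genes tested rose. VWF (28 and 27 reads in BRG1-labelled libraries, 82 and 37 in controls) and TIE1 (13 and 10 reads against 6 and 1) did not pass. EMCN had 0 reads in both BRG1-labelled libraries and 6 and 2 in controls. TEK was at 0 reads in all 4 libraries, and KDR and CDH5 were at 0 in both BRG1-labelled libraries and at no more than 2 in either control. Their part in the change of ENG was not tested.

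Among the 8 SMAD genes, SMAD9, SMAD6 and SMAD5 rose, SMAD3 fell, and SMAD1, SMAD2, SMAD4 and SMAD7 did not pass. The share that passed, 50%, was near the 44.6% of all genes tested. SMAD3 (ENSSSCG00000004952; chromosome 1, 164998457 to 165124455), a transducer of TGF-beta and activin signals, was at 112 and 111 CPM in BRG1-labelled libraries and at 156 and 173 CPM in controls, a log2 fold change of -0.55 ± 0.10 (edgeR adjusted p = 0.000442). SMAD2, which transduces the same signals, was at 34.1 and 28.9 CPM in BRG1-labelled libraries and at 31.8 and 27.9 CPM in controls. The groups of SMAD2 overlapped and its 95% interval ran from -0.21 to 0.36. It turned to -0.09 with the span trend removed, -0.05 without BRG1-labelled library 1 and -0.03 without control 2. SMAD3 was at -0.33 with library size alone and was still called. Whether the changes of SMAD2 and SMAD3 differ was not tested.

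Of the 3 transducers of BMP signals, SMAD9 and SMAD5 rose. SMAD9 (ENSSSCG00000009357; chromosome 11, 12705652 to 12727981) was at 30.3 and 30.5 CPM in BRG1-labelled libraries and at 12.6 and 20.0 CPM in controls, a log2 fold change of 0.90 ± 0.18 (edgeR adjusted p = 0.000837). It also had the widest gap between the 2 controls of the 44 genes, 0.67 on the log2 scale. The groups did not overlap, and without control 1 the log2 fold change was 0.59. SMAD5 reached 0.37 ± 0.14 (edgeR adjusted p = 0.0368) and was not called without BRG1-labelled library 1 (0.31), library 2 (0.43) or control 1 (0.21), with DESeq2 (0.35; adjusted p = 0.0793) or with the span trend removed (0.29; edgeR adjusted p = 0.0742). SMAD1 was at -0.24 ± 0.11 (edgeR adjusted p = 0.0935), and it passed as lower with the span trend removed (-0.37). Without control 1 its log2 fold change was -0.35.

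SMAD4, the shared partner of both branches, was at 67.2 and 72.1 CPM in BRG1-labelled libraries and at 75.9 and 72.9 CPM in controls. The groups were separate by less than either group's spread, and the log2 fold change of -0.09 had a 95% interval from -0.31 to 0.12. It turned to 0.13 with library size alone and 0.01 with upper-quartile scaling, and passed as lower with the span trend removed (-0.29; edgeR adjusted p = 0.0268). SMAD6 (ENSSSCG00000004948; chromosome 1, 164652602 to 164735084), an inhibitory SMAD that acts mainly on BMP receptors, was at 10.3 and 11.6 CPM in BRG1-labelled libraries and at 5.91 and 5.85 CPM in controls (0.90 ± 0.18; edgeR adjusted p = 0.000923). SMAD7, the inhibitory SMAD of both branches and a classic early target of TGF-beta, was at 9.05 and 10.8 CPM in BRG1-labelled libraries and at 9.45 and 11.2 CPM in controls. Its groups overlapped, the 95% interval ran from -0.43 to 0.32, and its sign turned with library size alone (0.17), with upper-quartile scaling (0.05), without BRG1-labelled library 1 (0.07) and without control 2 (0.06).

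The 3 intracellular feedback genes rose together, where 21.0% of all genes tested rose. PMEPA1 (ENSSSCG00000034259; chromosome 17, 57999287 to 58054329), a membrane protein induced by TGF-beta that sequesters SMAD2 and SMAD3, had the largest rise of the pathway genes. It was at 63.9 and 60.9 CPM in BRG1-labelled libraries and at 13.1 and 13.8 CPM in controls, a log2 fold change of 2.21 ± 0.12 (edgeR adjusted p = 3.39e-09). SKIL (ENSSSCG00000011746; chromosome 13, 109029831 to 109059176), a SMAD corepressor that TGF-beta induces, was at 57.8 and 59.7 CPM in BRG1-labelled libraries and at 30.0 and 30.6 CPM in controls (0.96 ± 0.11; edgeR adjusted p = 5.78e-06). Both genes varied little within groups. SKI, the related corepressor, was at 194 and 181 CPM in BRG1-labelled libraries and at 115 and 138 CPM in controls (0.57 ± 0.11; edgeR adjusted p = 0.000670). PMEPA1 thus rose while SMAD7, another target of the same signal, did not pass; that difference was not tested.

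Of the 4 ID genes, which encode helix-loop-helix proteins that lack a DNA-binding region and sequester other such factors, ID4, ID1 and ID2 fell and ID3 rose. Of all genes tested, 23.6% fell and 21.0% rose. ID4 (ENSSSCG00000024312; chromosome 7, 15281535 to 15284895) was at 22.2 and 20.3 CPM in BRG1-labelled libraries and at 94.3 and 88.6 CPM in controls, a log2 fold change of -2.11 ± 0.11 (edgeR adjusted p = 2.94e-09). ID1 (ENSSSCG00000037016; chromosome 17, 35316518 to 35317742), the best known target of BMP signals, was at 29.7 and 33.8 CPM in BRG1-labelled libraries and at 59.8 and 46.8 CPM in controls (-0.75 ± 0.13; edgeR adjusted p = 0.000322). ID3 (ENSSSCG00000039514; chromosome 6, 81422541 to 81424169) went the other way, with 161 and 168 CPM in BRG1-labelled libraries and 115 and 104 CPM in controls (0.59 ± 0.10; edgeR adjusted p = 0.000262). ID2 had a log2 fold change of -0.43 ± 0.10 (edgeR adjusted p = 0.00302).

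The ID loci are short, from 1225 to 3361 bp, and the 1127 shortest genes of the 11269 tested with a known span had a median log2 fold change of -0.35. With the span trend removed, ID4 was at -1.74, ID1 at -0.33, ID2 at -0.04 (edgeR adjusted p = 0.785) and ID3 at 1.00. The signs held for all 4 and the call of ID2 was lost. ID2 was not called with library size alone (-0.20; edgeR adjusted p = 0.112), without BRG1-labelled library 1 (-0.46; edgeR adjusted p = 0.0708) or without library 2 (-0.40; edgeR adjusted p = 0.127).

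The pathway genes also differed between libraries of one group, and, as over all genes, more so between the controls. The median absolute gap between library 2 and library 1 was 0.07 on the log2 scale in the BRG1-labelled group and 0.15 in controls, against 0.12 and 0.22 over all genes tested. In 30 of the 44 (68.2%) the controls lay farther apart than the BRG1-labelled libraries, close to the 65.7% of all genes tested. SMAD9, INHBA, NOG, TGFBR3, LTBP2, BMPR2, LTBP3 and LTBP4 were higher in control 2 than in control 1 by 0.40 to 0.67 on the log2 scale. ID1 showed the widest gap in the other direction, at -0.35. In the BRG1-labelled group GREM1 had the widest gap, 0.44 lower in library 2.

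**Figure D3:**
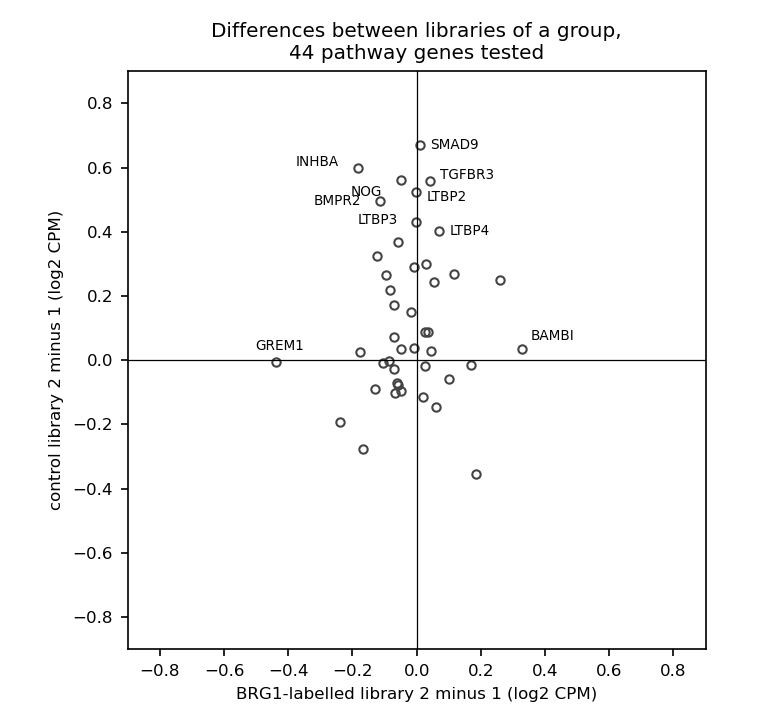
Difference in log2 CPM between library 2 and library 1 of the same group for the 44 pathway genes tested, with the BRG1-labelled group on the horizontal and the controls on the vertical axis. Genes over 0.4 in controls or 0.3 in the BRG1-labelled group are named; the points spread more along the vertical axis, up to 0.67 for SMAD9.

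Other genes of the pathway were taken from a pair of lists: 65 further ligands, receptors, antagonists and regulators, of which 46 were tested, and 36 genes known as targets of TGF-beta or BMP signals, of which 33 were tested. Among the further components 11 rose, 9 fell and 26 did not pass, with a median log2 fold change of 0.08. Among the targets 18 rose, 6 fell and 9 did not pass, with a median of 0.58 against 0.02 for all genes tested. Some targets were counted far more deeply than the median gene tested, at 17.6 CPM, such as FN1 at 2191 and 3346 CPM in controls. Others were not, such as TGFBI at 1.83 and 1.53 CPM in controls. The part of depth in the share called was not tested. The share of targets that rose was 54.5%, and the share of further components that rose was 23.9%, close to the 21.0% of all genes. Both lists were chosen with earlier results of these data known. The shares are thus descriptions, and their difference was not tested.

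**Figure D4:**
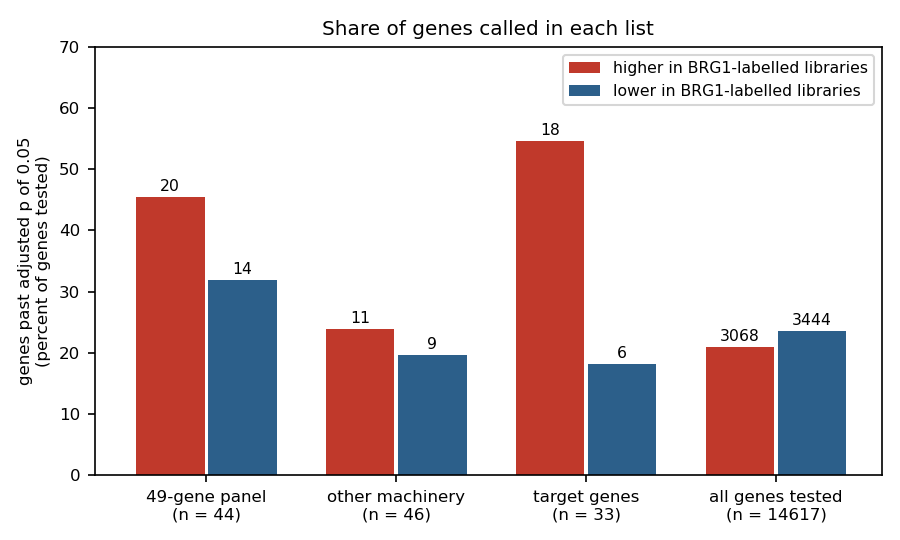
Percent of tested genes past an adjusted p of 0.05 as higher (red) or lower (blue) in the BRG1-labelled libraries, for the 49 pathway genes, the further components, the target genes and all genes tested; the numbers over the bars are gene counts. The target genes have the highest red bar, 54.5%, and the further components lie near all genes. All lists of pathway genes were chosen with earlier results of these data known.

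Among the further components the 8 smallest adjusted p-values belonged to 6 genes that rose and 2 that fell. DCN, decorin, a proteoglycan that can bind TGF-beta, was at 1350 and 1348 CPM in BRG1-labelled libraries and at 522 and 497 CPM in controls (1.41 ± 0.11). FURIN, the convertase that cuts TGF-beta and BMP precursors, was at 203 and 210 CPM in BRG1-labelled libraries and at 437 and 502 CPM in controls (-1.19 ± 0.11). CHRDL1, a secreted BMP antagonist related to chordin, and RGMA, a BMP co-receptor, rose by 1.28 ± 0.11 and 1.12 ± 0.12. FBN1, fibrillin 1, to which LTBPs bind, rose by 1.47 ± 0.17, and THBS1, thrombospondin 1, an activator of latent TGF-beta, by 1.20 ± 0.17. ZFYVE16, an endosomal adaptor for SMADs, rose by 0.68 ± 0.11 and INHBE, the activin beta E subunit, fell by 0.70 ± 0.12. The rises in this list numbered 21 with library size alone, 7 without BRG1-labelled library 2 and 14 without control 2. Its falls numbered 6 with library size alone, 5 without BRG1-labelled library 1, 6 without library 2 and 13 without control 1 or control 2.

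Among the target genes the 8 smallest adjusted p-values belonged to 7 matrix and contractile genes that rose and to MMP1, which fell. ACTA2, smooth muscle alpha-actin, was at 134 and 149 CPM in BRG1-labelled libraries and at 7.31 and 5.82 CPM in controls (4.43 ± 0.14; edgeR adjusted p = 6.54e-11). ELN, elastin, was at 44.1 and 38.9 CPM in BRG1-labelled libraries and at 2.68 and 1.74 CPM in controls (4.22 ± 0.19). The other 5 rises were those of TAGLN, transgelin (2.22 ± 0.11), CCN2, a matricellular protein (2.21 ± 0.12), FN1, fibronectin (2.16 ± 0.17), LOX, the crosslinking enzyme lysyl oxidase (1.83 ± 0.12), and POSTN, periostin (1.45 ± 0.10). MMP1, a collagenase that TGF-beta lowers in fibroblasts, was at 800 and 775 CPM in BRG1-labelled libraries and at 4175 and 3662 CPM in controls (-2.32 ± 0.12). The falls also included the transcription factor genes TWIST1 (-0.75 ± 0.10), HEY1 (-1.53 ± 0.41) and JUNB (-0.27 ± 0.10) and the cell cycle inhibitor gene CDKN2B (-0.78 ± 0.14), named after their values were seen. The list joins targets of TGF-beta and of BMP signals, and it holds MMP1, which TGF-beta lowers. Its 18 rises and 6 falls thus cannot show whether the targets of a single signal moved together.

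ACTA2 and TAGLN are also markers of smooth muscle cells and pericytes. The 8 markers of these cells summed to 834 and 872 CPM in BRG1-labelled libraries and to 192 and 190 CPM in controls. Of the 7 tested, 5 rose: ACTA2, CNN1, TAGLN, NOTCH3 and CSPG4. Among all genes tested 21.0% rose. MYH11, the smooth muscle myosin, had 40 and 61 reads in BRG1-labelled libraries and 34 and 46 in controls and did not pass, DES had 36 and 12 reads against 17 and 10, and RGS5 had 0 and 1 against 1 and 6. The part of such cells in these changes was not tested.

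**Figure D5:**
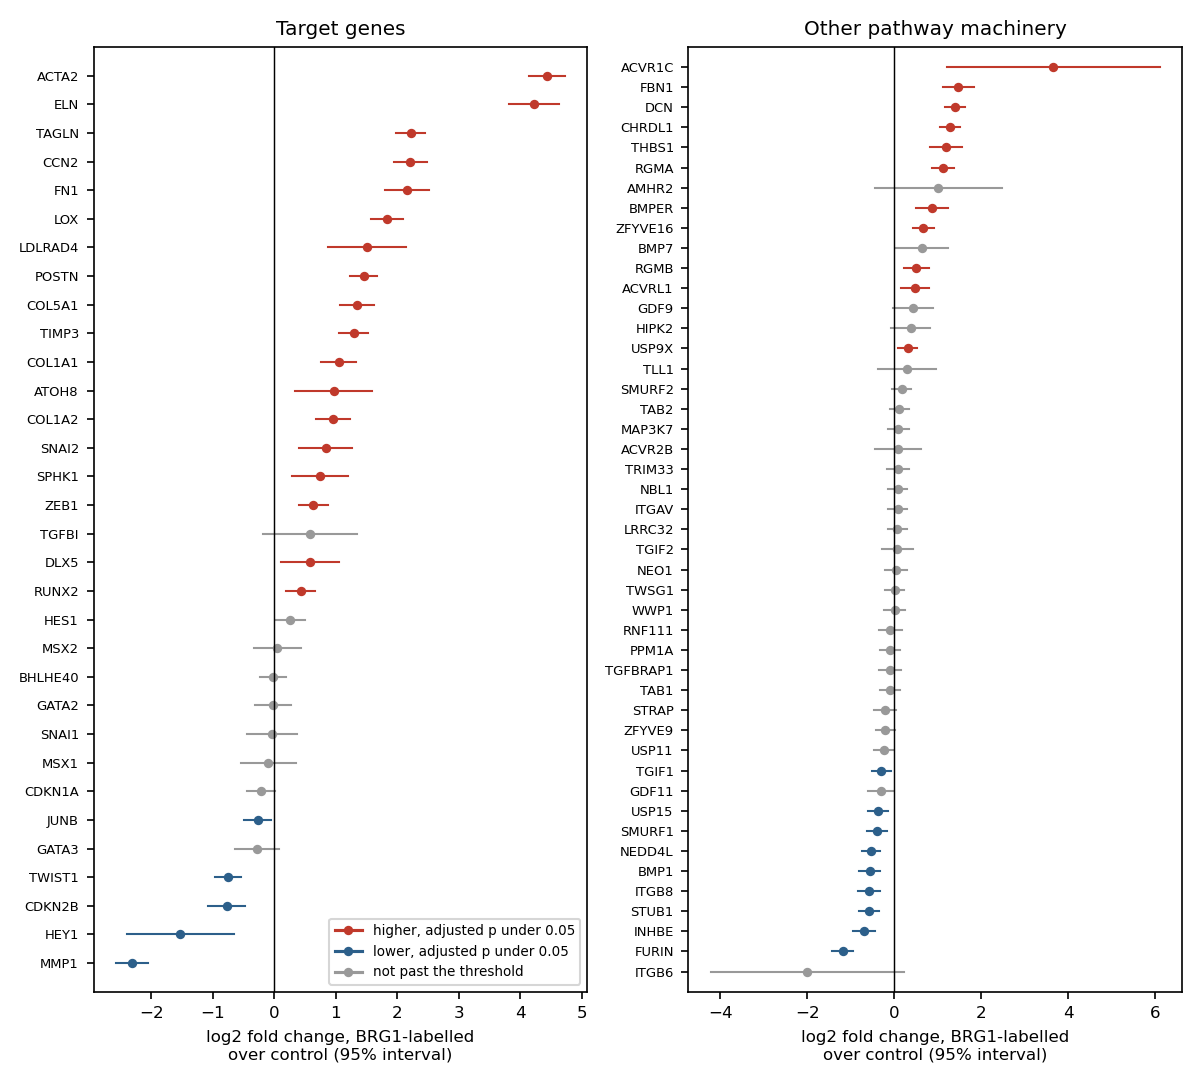
Log2 fold change with 95% interval, BRG1-labelled over control libraries (2 each), for the target genes (left; 1 of the 33 tested is not shown) and the 46 further pathway components tested (right); red and blue mark genes higher and lower at an adjusted p of 0.05, and grey those that did not pass. The targets run from -2.32 for MMP1 to 4.43 for ACTA2, while most of the further components lie near 0.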

How the data were processed

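RNA-seq was deposited as raw whole-number counts, with a table of Ensembl genes for each library. The submitters' processing notes name FastQC, STAR, SAMtools, Cufflinks, edgeR and DESeq2 and the build Sscrofa11.1. The read counter and its strand setting are not given in the sources used here. Reads of overlapping or antisense genes may thus be mixed. Entries that name no gene were left out of totals and tests: reads outside genes were 6.11% to 10.5%, ambiguous reads 1.90% to 2.33% and multiply aligned reads 1.42% to 1.80% of those listed.

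All 4 libraries (34486400 to 38126860 gene reads) were fitted in edgeR 4.0.16 (R 4.3.3) with filterByExpr (minimum count 10, minimum total 15), TMM, the quasi-likelihood F test, a prior count of 0.125 and Benjamini-Hochberg adjustment over 14617 genes, and the test was tested on simulated data. SE is the unshrunk log2 fold change over the square root of F. Replicates differed by more than counting noise (chi-square per degree of freedom 5.40 for the BRG1-labelled pair and 39.8 for controls). The simulated counts were drawn with a common dispersion for both groups, so they do not reproduce this difference between the groups. Positions and spans are from RefSeq on Sscrofa11.1, by symbol; INHBA had no protein-coding entry there. Alternatives were other scalings and filters, DESeq2 1.42.0, limma-voom (limma 3.58.1), a replicate block, removal of the span trend, and each library left out in turn.

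Values in every library were given for genes past the threshold with a 2-fold change or among the 3 smallest adjusted p of their role, for the central receptors and SMADs, and for some of the 8 smallest adjusted p of each further list; TGFB1, LTBP2, BMP4, FSTL3, BMPR2 and BAMBI were added after their values were seen. The genes and lists were chosen with earlier results of these data known. A single target gene is counted in its list but is not reported here by name.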

Additional observations from a re-analysis of the deposited data

Results flagged for a closer look

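Reads outside annotated genes, which no comparison above uses, made up a larger share in both BRG1-labelled libraries than in the controls. They were 10.3% and 10.5% of all reads listed in BRG1-labelled libraries 1 and 2, against 6.11% and 7.34% in controls 1 and 2. An exact permutation test of 2 against 2 libraries cannot give a p below 0.333. The part of this difference in the values of the pathway genes was not tested.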

How the results depend on the processing

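The counts of pathway genes past the threshold kept within 1.5 times of 20 higher and 14 lower in all 13 alternatives. With the replicate number as a block they were 20 and 14, the same 34 genes; the labels do not say that the numbers pair libraries, and same-numbered libraries did not deviate together (correlation -0.04). Each library left out in turn gave 16 to 22 higher and 10 to 17 lower. Without a control, the lone control is assumed to vary like the BRG1-labelled pair, whose spread was small, so those p-values are low. The median log2 fold change of 0.06 was 0.16 with upper-quartile scaling, 0.28 with library size alone, 0.11 with the span trend removed, and 0.038 to 0.13 with a library left out. Over all genes, library size alone gave 4819 higher and 2140 lower, and a library left out gave 1908 to 3673 higher and 2177 to 4321 lower. For the further components the rises were 21 with library size alone and 7 to 14 with a library left out, and the falls 6 with library size alone and 5 to 13. Signs turned only among genes that had not passed: SMARCA4 (0.061 with upper quartile, 0.18 with library size alone, -0.15 to 0.048 with a library left out), LTBP2 (0.040 and 0.16 with those scalings, -0.31 to 0.21 with a library left out), SMAD4 (0.012 and 0.13 with those scalings), SMAD7 (0.049 and 0.17, and -0.20 to 0.070 with a library left out), BAMBI (0.021 with library size alone, 0.11 with the span trend removed), TGFBR1 (-0.092 with the span trend removed, -0.021 to 0.066 with a library left out), SMAD2 (-0.093 with the span trend removed, -0.046 to 0.19 with a library left out) and FSTL3 (-0.00035 to 0.065 with a library left out). The cause of these shifts was not tested. With 2 libraries a group, NOG, BAMBI and genes under 10 reads are limited by depth.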

Other observations

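Some pathway genes lie near each other in the genome and changed in opposite directions; these pairs were picked after their values were seen. On chromosome 1 SMAD3, which fell by 0.55 on the log2 scale, lies 263 kb from SMAD6, which rose by 0.90. On chromosome 6 TGFB1, which fell by 0.44, lies 471 kb from LTBP4, which rose by 0.71. The fall of TGFB1 was not called with scaling by library size alone (-0.21). Over all genes tested, 21.0% rose and 23.6% fell. Also on chromosome 1, SMAD7 lies 1001 kb from SMAD2 and 1978 kb from SMAD4, and none of these 3 passed the test.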
